A study of Oryza sativa with 8 samples.

Results

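The comparison described here sets roots of OsPSTOL1 rice from P-deficient soil against roots of the same genotype from P-fertilised soil. Its members are the 4 arrays labelled transgenic, 2 for each soil, out of 8 arrays in the series, and every probe set that is not a control. The plants were of the indica cultivar IR64 and carried OsPSTOL1, a protein kinase gene known for improving root growth at low phosphorus, behind the 35S promoter of cauliflower mosaic virus, which is active in most plant tissues and so does not follow the gene's own pattern. The other 4 arrays came from null segregants, sister plants that had lost the transgene, and they are used only for comparison.

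Both genotypes grew in pots in a greenhouse. The P-deficient group was sampled at heading, when the panicle emerges, and the P-fertilised group at mid-tillering, an earlier vegetative stage. Soil and growth stage therefore changed together and cannot be told apart in any value below. Total root RNA was extracted with Trizol and treated with DNase, then hybridised to Affymetrix rice arrays with 1 colour. The labels call the 2 arrays of a group biological replicates and do not say how many plants or which transgenic line each came from. Below, "P-deficient" and "P-fertilised" stand for soil together with its stage. The annotation used here named no probe set for OsPSTOL1, so its own level is not given.

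Phosphorus-starved rice roots are known to hold a defined response: PHR transcription factors, released from inhibition by SPX proteins, raise phosphate transporters, phosphatases and enzymes that replace phospholipids with galactolipids. The SPX genes are themselves targets of PHR and serve as markers of low phosphate status. Rice roots also take up silicon, iron, ammonium and water through well known transporters, whose amounts depend on the age of the root as well as on supply.

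Each array's deposited signals had a trimmed mean of 100.01 to 100.02, and median signals lay between 14.1 and 18.3. Replicates correlated at r = 0.973 in P-deficient and 0.983 in P-fertilised OsPSTOL1 roots, while arrays of different soils correlated at 0.804 to 0.829, across 34316 probe sets that share a scale and a chip and are not independent replicates. Control transcripts read at both ends differed in integrity. For GAPDH the ratio of 3' to 5' signal was 198 and 3.05 on the P-deficient OsPSTOL1 arrays and 2.16 and 1.55 on the P-fertilised ones, against 1.15 to 1.94 in null segregants. The actin ratio was 272 and 20.3 in P-deficient OsPSTOL1 roots and 6.09 and 5.79 in P-fertilised ones, against 4.85 to 8.61 in null segregants. The first P-deficient replicate therefore stood apart from all the others in these 2 transcripts and in cyclophilin, where its ratio was 8.81 against 1.62 to 3.2 elsewhere, but its ubiquitin ratio was 0.957 against 0.721 to 0.841. The second P-deficient replicate was also above every P-fertilised and null segregant array for GAPDH and actin, but not for cyclophilin (2.84) or ubiquitin (0.727). What part this has in the differences below was not tested. Where leaving out 1 array changed a list's count by more than 1.5 times, this is stated beside that list. Leaving out the first P-deficient replicate still keeps the second.

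**Figure D1:**
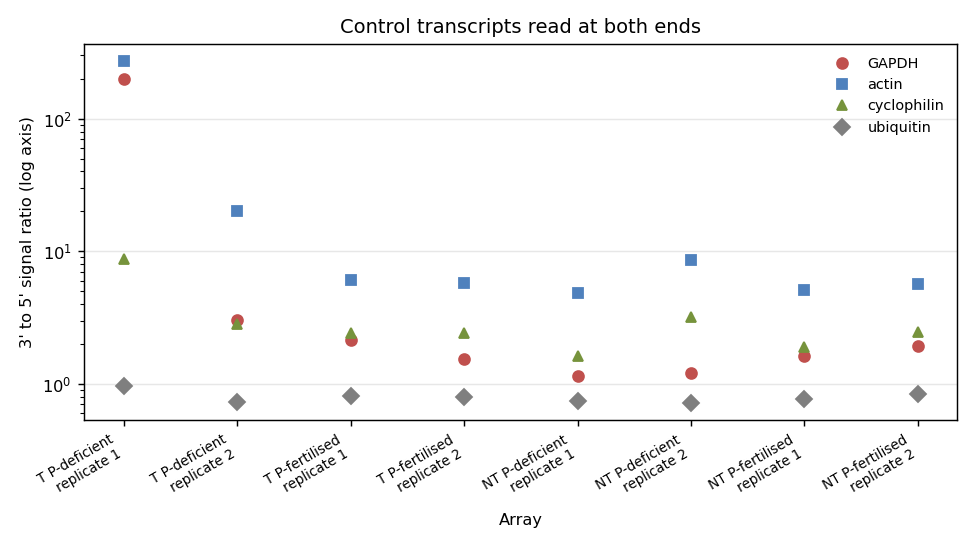
Ratio of 3' to 5' signal of 4 control transcripts (log axis) on each of the 8 arrays, 1 point per array and transcript. The first P-deficient OsPSTOL1 array reached 198 for GAPDH and 272 for actin, while the null segregant arrays lay at 1.15 to 1.94 and 4.85 to 8.61.

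Tissue markers were checked next. The 8 root tissue markers summed to 2519 and 2892 in P-deficient and to 8500 and 8294 in P-fertilised OsPSTOL1 roots, and 6 of the 8 passed the test as lower in P-deficient roots, a count that became 3 without either P-deficient replicate or without the second P-fertilised one. Lsi1, the silicon channel of the root exodermis and endodermis, kept signals of 2121.4 and 2477.9 against 3248.4 and 3305.1, so this root marker was high on all 4 arrays. It made up most of the P-deficient sums, and the median difference of the 8 markers was -0.58 on the log2 scale. OsCASP1, a membrane protein of the Casparian strip, fell from 612.2 and 488.4 to 18.4 and 10.8. The 12 photosynthesis genes summed to 1928 and 2095 against 3004 and 3494, and the chlorophyll-binding protein gene CAB2R read 28.6 and 6.0 against 66.3 and 397.3. Arbuscular mycorrhiza was represented by 2 genes, whose sum was 1076 and 564.9 against 980.6 and 422.9 and thus overlapped between the soils. In RNA of whole roots, fewer cells of a type and less RNA per cell cannot be told apart.

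Signals were compared as log2(signal + 32), so that fold changes of dim genes are understated. Differences are given as P-deficient minus P-fertilised with the standard error (SE) of the limma fit, which pools the spread within all 4 groups of 2 arrays, and p-values were adjusted by Benjamini-Hochberg over 34316 probe sets. At an adjusted p of 0.05, 5304 probe sets (15.5%) were higher and 6931 (20.2%) lower in P-deficient OsPSTOL1 roots, 35.7% in all. Of these, 604 rose and 1031 fell by at least 2 on the log2 scale. The 2 arrays of each soil did not overlap for 33.0% of probe sets in the higher and 37.8% in the lower direction, so that non-overlap alone was common. Taking 1 probe set per gene, that with the highest mean, 3448 of 16166 genes (21.3%) were higher and 3907 (24.2%) lower, with a median of -0.01, and the gene lists below are read against these shares. In null segregants the same contrast gave 18.9% of genes higher and 23.0% lower, 41.9% in all (45.5% in OsPSTOL1 plants). Of 2471 genes with at least 2 tested probe sets, 1437 had a call, and 56 of these (3.9%) had probe sets that passed in both directions. Genes where 1 probe set passed and another did not were not counted.

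SPX genes led the phosphate sensing genes that were higher in P-deficient roots. Of 8 genes tested, 4 were higher, 1 was lower and 3 did not pass, with a median difference of 1.29 on the log2 scale. SPX3, a phosphate-dependent repressor of PHR activity, read 572.3 and 345.1 in P-deficient and 16.5 and 27.4 in P-fertilised roots, a difference of 3.15 ± 0.26 (SE; limma adjusted p = 5.7e-05). SPX5, its close relative, read 1526.5 and 1550.9 against 353.5 and 261.1, a difference of 2.22 ± 0.23 (limma adjusted p = 0.000193), and its other tested probe set differed by 2.32. SPX2 read 503.2 and 505.4 against 137.7 and 102.9, a difference of 1.83 ± 0.20. In each of these 3 genes both P-deficient arrays lay above both P-fertilised ones. PHR3, a MYB-type factor that activates phosphate starvation genes, read 169.0 and 227.2 against 35.9 on both P-fertilised arrays (1.75 ± 0.44, limma adjusted p = 0.0145). SPX4, which holds PHR2 in the cytosol when phosphate is ample, was the gene that fell: 55.5 and 82.5 against 172.1 and 170.4 (-1.02 ± 0.18), although its other probe set differed by only -0.04.

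The remaining sensing genes did not pass. SPX1 read 1922.0 and 1635.8 against 1180.0 and 818.4, without overlap, at 0.83 ± 0.31 and a limma adjusted p of 0.0665. PHR2, the central regulator of the rice phosphate response, read 409.7 and 350.8 against 436.9 and 389.6 (-0.11 ± 0.16, limma adjusted p = 0.638), and its arrays overlapped between soils.

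Of 10 tested phosphate transporters, 2 were higher, 2 lower and 6 did not pass (median -0.02). These shares, 20.0% each way, were near the 21.3% and 24.2% of all genes. Fewer were higher without the second P-deficient or the first P-fertilised replicate. Among the PHT1 family of phosphate importers, OsPT4 rose from 130.1 and 152.3 to 618.7 and 549.6 (1.83 ± 0.18, limma adjusted p = 0.000126) and OsPT6 from 28.3 and 49.8 to 83.9 and 167.8 (1.12 ± 0.32, limma adjusted p = 0.025). OsPT2, a low-affinity member that also moves phosphate from root to shoot, fell from 2231.7 and 1983.6 to 536.8 and 388.0 (-2.13 ± 0.30, limma adjusted p = 0.000898). PHO1-2, which loads phosphate into the xylem, fell from 1729.2 and 1809.8 to 189.0 and 243.3 (-2.87 ± 0.16, limma adjusted p = 1.15e-05), while its 2 other tested probe sets differed by -0.55 and -0.50 and did not pass. Both genes of root-to-shoot transport thus had their high signals in P-fertilised roots at mid-tillering.

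OsPT8, a high-affinity importer, read 1948.3 and 2166.7 against 1543.6 and 1117.6 (0.63 ± 0.26, limma adjusted p = 0.0972). OsPT1, expressed in rice roots whatever the phosphate supply, read 728.6 and 679.9 against 696.9 and 647.1 (0.06 ± 0.21), a difference whose sign depended on the scaling, with -0.03 after quantile normalization. OsPT11, the importer of mycorrhizal root cells, read 932.6 and 438.5 against 713.5 and 121.4, so the replicates of 1 soil differed more than the soils did. Of the 6 tested genes for phosphate scavenging and lipid replacement, 3 were higher and 0 lower (median 0.56). The gene annotated PAP2 rose from 290.3 and 274.9 to 1283.2 and 1385.4 (2.12 ± 0.14, limma adjusted p = 2.51e-05). It was placed in this list by that symbol alone, and its role was not checked. MGD2, a synthase of the galactolipid that replaces phospholipids, rose from 48.7 and 72.9 to 142.6 and 214.5 (1.17 ± 0.22), and PLD1, a phospholipase D, from 2159.7 and 1943.6 to 3167.5 and 3489.6 (0.69 ± 0.14).

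**Figure D2:**
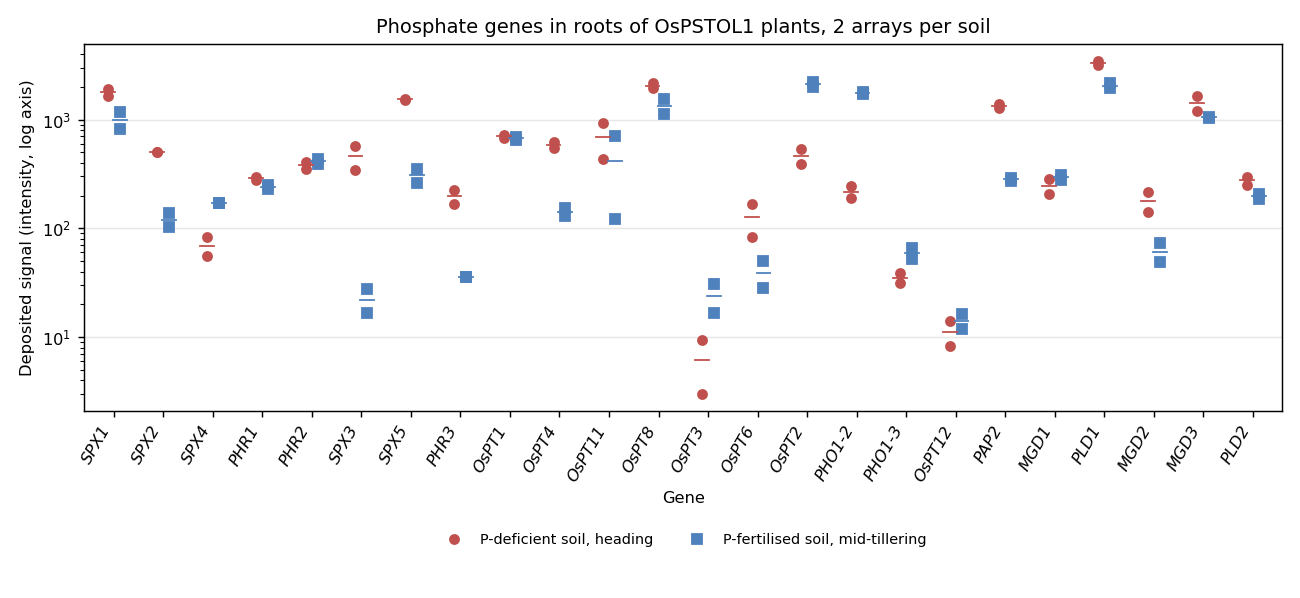
Deposited signal (log axis) of each tested phosphate gene on the 4 OsPSTOL1 arrays, circles for P-deficient soil at heading, squares for P-fertilised soil at mid-tillering, bars for the mean of 2 arrays. SPX3, SPX5, SPX2, OsPT4 and the gene annotated PAP2 lie higher in P-deficient roots, PHO1-2 and OsPT2 lower, and OsPT11 overlaps.

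Many genes of iron uptake were lower in P-deficient roots. Of 29 tested iron genes, 15 were lower, 2 higher and 12 did not pass (median -0.74), a share of 51.7% lower against 24.2% of all genes. NAS1, nicotianamine synthase, which makes the precursor of the iron chelators that grass roots release, fell from 2012.8 and 1675.9 to 105.3 and 25.7 (-4.39 ± 0.36, limma adjusted p = 5.98e-05). NAS2 fell from 1182.8 and 1223.4 to 127.9 and 47.7, and NAAT1, the aminotransferase of the next step, from 406.2 and 430.4 to 42.9 and 19.4. The uptake transporter for iron-phytosiderophore, YSL15, fell from 891.9 and 861.7 to 146.0 and 113.0 (-2.50 ± 0.16), and the ferrous iron transporter IRT1 from 159.2 and 158.8 to 60.5 and 35.2 (-1.28 ± 0.19). TOM1, which exports the chelator, did not pass and read 2404.4 and 2390.6 against 2326.9 and 2162.8 (0.09 ± 0.12, limma adjusted p = 0.579). The 2 genes that rose were VIT2, a vacuolar iron transporter, at 415.2 and 339.4 against 122.3 and 166.5, and YSL13, at 450.8 and 411.9 against 184.4 and 122.5.

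Of 20 tested zinc, copper and silicon transporters, 9 were lower, 4 higher and 7 did not pass (median -0.24). Lsi2, the exporter that passes silicon on towards the xylem, fell from 2732.7 and 2495.2 to 76.7 and 44.6 (-4.86 ± 0.36, limma adjusted p = 3.65e-05). Lsi6, a silicon channel of the xylem region in leaves and nodes that is also present in root tips, fell from 1032.4 and 1130.5 to 54.8 and 39.0 (-3.82 ± 0.20). Lsi1 differed by -0.51 ± 0.17 (limma adjusted p = 0.0423), a call that 9 of 17 alternatives did not keep, among them leaving out each of the 4 OsPSTOL1 arrays in turn (limma adjusted p = 0.0605 to 0.196). COPT1, a copper importer, fell from 1879.1 and 1512.8 to 27.7 and 45.0, and OsZIP1, of the zinc transporter family, from 1771.4 and 1537.8 to 36.7 and 65.0. In the other direction, ZIP4 rose from 46.6 and 58.9 to 255.7 and 316.5 (1.91 ± 0.18), and the vacuolar metal transporter MTP1 from 846.3 and 774.1 to 2561.4 and 2028.7 (1.46 ± 0.16).

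Nitrogen genes were lower in 10 of 19 cases and higher in 2 (median -0.72); without the first P-fertilised replicate the lower count was 6, and without either second replicate the higher count was 1. The cytosolic glutamine synthetase genes GLN1-1 and GLN1-2, which fix ammonium into glutamine, fell from 2043.0 and 2335.7 to 143.2 and 260.8 and from 3242.0 and 3146.7 to 431.6 and 257.4. The plastid form GS2 fell from 408.2 and 401.2 to 67.7 and 37.2 (-2.39 ± 0.21), and the ammonium importer AMT1-2 from 630.9 and 572.8 to 106.1 and 63.6 (-2.46 ± 0.56). AMT3-2, another ammonium transporter, and GLN1-3 were the 2 that rose, by 1.30 ± 0.25 and 0.83 ± 0.19. Potassium transporters split evenly, with 7 of 24 higher and 7 lower (median -0.02), but 4 and 4 without the second P-fertilised replicate and 4 lower without the first P-deficient one. HAK16, a potassium transporter, rose from 24.7 and 21.2 to 325.0 and 321.2 (2.69 ± 0.17), whereas the root inward channel AKT1 fell from 642.6 and 586.4 to 153.3 and 162.1 (-1.77 ± 0.17).

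Aquaporins, the water channels, were lower in 13 of 23 cases and higher in 2 (median -0.78); without the second P-fertilised replicate the lower count was 7. PIP2-5, a plasma membrane channel, fell from 258.5 and 391.7 to 31.2 and 23.5 (-2.57 ± 0.33), and PIP2-2 from 2802.8 and 2743.2 to 804.0 and 397.8 (-2.23 ± 0.27). The vacuolar channel TIP2-1 read 928.8 and 75.7 against 3204.7 and 3079.6 (-3.30 ± 0.79), so its P-deficient replicates differed widely while staying below the other soil. TIP3, a vacuolar channel of a subfamily known from seeds, went the other way and rose from 53.2 and 34.7 to 725.8 and 1025.1 (3.57 ± 0.22, limma adjusted p = 1.66e-05).

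The gene with one of the largest rises was SWEET12 (LOC4332825), of the family of sugar exporters, at 2947.5 and 2769.5 in P-deficient roots against 4.6 and 6.1 in P-fertilised ones (6.27 ± 0.15, limma adjusted p = 3.74e-07). Of 16 tested sugar transporters, 6 were higher, 3 lower and 7 did not pass (median 0.48). SWEET15 rose from 5.7 and 2.0 to 191.1 and 189.8, and the sucrose transporter OsSUT4 from 328.7 and 355.1 to 1354.3 and 1242.3 (1.83 ± 0.18). SWEET1A fell from 1527.1 and 1531.6 to 85.7 and 26.4 (-4.24 ± 0.42; -0.83 in its other probe set). Members of 1 family were thus at opposite ends of the comparison.

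Sucrose cleavage and starch genes were divided too, with 8 of 22 higher and 7 lower (median 0.29). SUS4, a sucrose synthase, rose from 93.6 and 92.6 to 2503.0 and 3199.3 (4.52 ± 0.24), while SUS1 fell from 3092.0 and 2909.6 to 430.8 and 364.7 (-2.82 ± 0.41). The cell wall invertases CIN7 and CIN2 fell by 2.91 and 2.54. Among starch genes, the starch synthase SSI rose from 37.2 and 47.0 to 536.2 and 378.7 (2.71 ± 0.21), the branching enzyme SBE from 345.4 and 391.3 to 1233.2 and 1234.9 (1.66 ± 0.16) and AGPS2, a subunit of the enzyme that makes ADP-glucose, from 131.7 and 167.4 to 559.5 and 432.7 (1.54 ± 0.19). RFS, annotated as raffinose synthase, rose from 89.1 and 149.6 to 3645.1 and 3763.0 (4.65 ± 0.20).

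Many genes of water deficit and abscisic acid (ABA) were higher in P-deficient roots. Of 75 tested genes in this list, 32 were higher, 17 lower and 26 did not pass (median 0.47; 42.7% higher and 22.7% lower against 21.3% and 24.2% of all genes); without the first P-fertilised replicate the lower count was 9, and without the second it was 11. RAB16B, a dehydrin that accumulates in drying tissue, read 4213.6 and 4215.8 in P-deficient roots against 51.4 and 10.8 (6.15 ± 0.45, limma adjusted p = 3.33e-05). RAB21, its neighbour in the same family, read 4818.4 and 4722.2 against 428.0 and 27.0 (4.87 ± 1.10, limma adjusted p = 0.00919), and RAB16D 5944.3 and 5852.8 against 420.0 and 40.4 (5.03 ± 1.06). LEA19, a late embryogenesis abundant protein, read 3620.3 and 3718.1 against 258.0 and 65.3, and the membrane protein gene OsPM19L1 4472.8 and 4964.4 against 190.7 and 41.7. In all 5 genes the first P-fertilised replicate was above the second, and both stayed far below the P-deficient arrays. The P-fertilised null segregants showed the same order in all 5, with 947.8 and 63.0 for RAB16D, 844.7 and 56.8 for RAB21 and 416.6 and 46.2 for OsPM19L1. The RAB16 genes are close copies, and their probe sets may share signal.

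Signalling genes of the ABA pathway were among those that passed. The phosphatase OsPP2C59 of the PP2C family, whose clade A members shut the ABA signal off, rose from 16.0 and 2.6 to 1169.7 and 1430.5 (5.02 ± 0.24). Its clade was not checked here. SAPK1, a SnRK2 kinase of osmotic stress, rose from 70.8 and 65.7 to 889.4 and 1180.4 (3.40 ± 0.19), and TRAB1, a bZIP factor that mediates ABA-responsive transcription, from 249.4 and 281.9 to 1193.8 and 1207.1 (2.05 ± 0.20). Among the 17 that fell, OsPP2C62 went from 936.0 and 703.3 to 129.5 and 126.5 (-2.40 ± 0.24) and the kinase SAPK3 from 807.4 and 923.8 to 363.9 and 372.7 (-1.16 ± 0.18). Apart from SAPK3 and SAPK5, the genes of this list that fell are all PP2C phosphatases, a large family counted whole here. The PP2C genes that rose, OsPP2C59 among them, come from the same whole family.

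Among heat shock genes 23 of 43 were higher, 4 lower and 16 not past the threshold (median 0.88; 53.5% higher), the lower count becoming 1 and 2 without the second P-deficient and the second P-fertilised replicate. HSP18.6 (LOC4330933), a small chaperone that holds unfolded protein, read 3509.1 and 3338.6 against 15.6 and 3.0 (6.40 ± 0.21, limma adjusted p = 8.62e-07), with 5.27 and 0.31 in its 2 other probe sets. HSP16.9A rose from 41.1 and 46.5 to 1756.8 and 1945.1 (4.63 ± 0.16) and HSP18.0 from 62.5 and 57.2 to 2062.1 and 1786.7 (4.41 ± 0.15). The heat shock factors HSF01 and HSF05 rose by 3.98 ± 0.26 and 3.46 ± 0.20. The factor HSFA2C fell from 1435.1 and 1130.4 to 143.0 and 103.0 (-3.09 ± 0.23) in 1 probe set. Another probe set of HSFA2C differed by -0.42 and did not pass (limma adjusted p = 0.156). Hsp90 read 4314.5 and 4370.5 against 3387.7 and 3501.8, and its difference of 0.33 ± 0.11 became 0.04 after quantile normalization. Other large rises were rab25, a dehydration-responsive gene, at 2149.2 and 2248.0 against 3.1 and 5.5, and Hox22, an HD-Zip homeobox factor, at 1063.5 and 1463.1 against 15.1 and 16.6 (4.74 ± 0.28). R1C-Prx, a 1-Cys peroxiredoxin, an antioxidant known from embryos and aleurone, rose from 21.9 and 21.2 to 2606.7 and 2709.6 (5.65 ± 0.19). PDHE1-A (LOC4340640), annotated as the E1 alpha subunit of pyruvate dehydrogenase, OsC3H10, a CCCH zinc finger gene, OsNrx2, a nucleoredoxin, and ELA3, an early nodulin-like gene, rose by 5.89, 4.80, 4.79 and 5.50. Another probe set with the symbol PDHE1-A, not assigned to LOC4340640, was lower by the same test (-0.66, limma adjusted p = 0.0183).

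**Figure D3:**
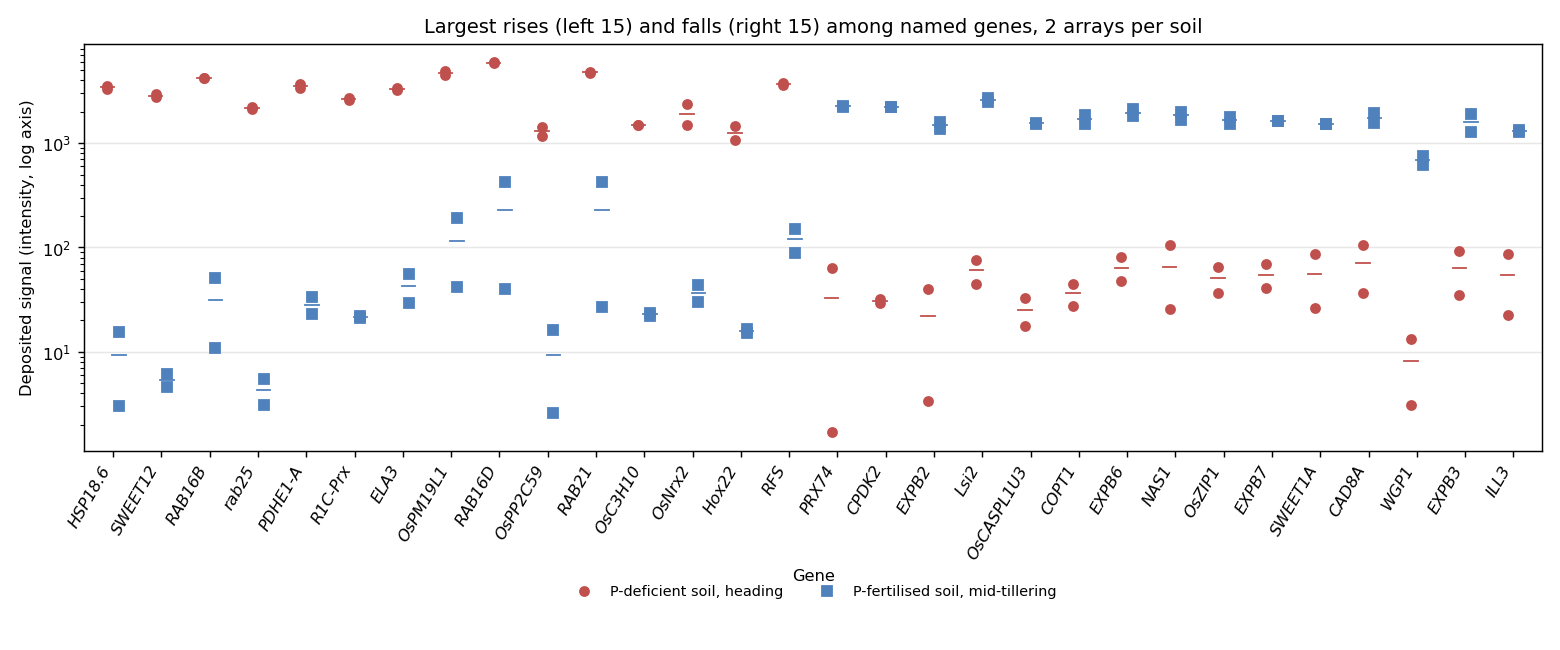
Deposited signal (log axis) of the 15 named genes with the largest rise and the 15 with the largest fall on the 4 OsPSTOL1 arrays, circles for P-deficient and squares for P-fertilised soil, bars for the mean of 2 arrays. HSP18.6 goes from 15.6 and 3.0 to 3509.1 and 3338.6, and RAB16D and RAB21 show the wide spread of the P-fertilised replicates.

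Genes for diterpenoids had the highest share of rises among the lists. Of 14 tested genes of diterpenoid phytoalexins, the antimicrobial compounds of rice, 11 were higher and 0 lower (median 1.26; 78.6% higher). CPS2, the cyclase that opens one branch of this pathway, rose from 90.2 and 35.1 to 653.9 and 867.9 (3.12 ± 0.35), CPS4, that of the momilactone branch, from 50.9 and 17.4 to 327.1 and 283.3 (2.39 ± 0.31), and DTC1, the terpene synthase gene of the phytocassane branch, from 33.2 and 26.1 to 299.3 and 276.7 (2.38 ± 0.18). The medians of this list were 1.26 in OsPSTOL1 plants and 2.13 in null segregants, and the gene-by-gene tests of the difference are given with the genotypes below. Chitinases and pathogenesis-related genes were higher in 6 of 13 cases and lower in 1 (median 0.33). Cht5 read 84.6 and 97.2 against 2.5 and 5.8 (1.77 ± 0.19), and PBZ1, a protein of the PR10 family, 3022.2 and 3342.2 against 1509.8 and 476.7 (1.86 ± 0.46).

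Antioxidant genes were higher in 9 of 22 cases and lower in 2 (median 0.38; 5 higher without the first P-deficient replicate or without either P-fertilised one). The glutathione transferase GST-I rose from 39.1 and 51.3 to 473.8 and 782.8 (3.06 ± 0.23), the ascorbate peroxidase APX8 from 27.4 and 43.9 to 269.5 and 235.8 (2.08 ± 0.18) and the cytosolic superoxide dismutase SodCc2 from 2146.0 and 2010.7 to 4243.7 and 4692.1 (1.09 ± 0.15). Both genes that fell are class III peroxidases, which act in the cell wall. PRX74 (LOC4339222) showed the largest fall among genes with a published name, from 2241.8 and 2297.0 to 63.3 and 1.7 (-5.34 ± 0.40, limma adjusted p = 3.7e-05), and PRX112 fell from 802.4 and 1067.8 to 51.7 and 8.7 (-4.04 ± 0.32).

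Cell wall genes were mostly lower in P-deficient roots. Of 25 tested expansins and xyloglucan enzymes, which loosen walls of growing cells, 18 were lower, 0 higher and 7 did not pass (median -2.07; 72.0% lower), with 1 higher without the second P-deficient replicate. EXPB2 fell from 1611.1 and 1358.2 to 40.3 and 3.4 (-4.90 ± 0.30, limma adjusted p = 1.51e-05), EXPB6 from 1812.3 and 2107.1 to 80.2 and 47.5 (-4.39 ± 0.20) and EXPB7 from 1639.0 and 1649.7 to 69.0 and 40.8 (-4.29 ± 0.19). EXPB3 fell by 4.13, and XTH8, a xyloglucan enzyme, by 0.73. Of 37 cellulose and related synthases, 21 were lower, 4 higher and 12 did not pass (median -1.05). CESA7 and CESA4, subunits of the secondary wall cellulose synthase, fell from 1237.4 and 1645.0 to 215.1 and 249.8 and from 957.0 and 1122.9 to 230.1 and 255.7, and CESA3 and CESA8, placed in the primary wall complex, fell by 1.71 and 1.80. CSLA5, of the mannan synthase family, was an exception and rose from 87.8 and 140.0 to 1759.3 and 1704.4 (3.62 ± 0.20).

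Lignin and Casparian strip genes were lower in 11 of 27 cases and higher in 4 (median -0.33; 2 higher without either second replicate). OsCASP1 fell by 3.64 ± 0.19 (limma adjusted p = 7.42e-06), with -2.31 and -2.47 in its other probe sets, and OsCASPL1U3, a CASP-like protein gene, from 1537.7 and 1556.8 to 32.5 and 17.8 (-4.80 ± 0.19). The laccase LAC3 fell from 1055.6 and 1134.1 to 92.8 and 62.0 (-3.38 ± 0.21), and CAD8A, of the cinnamyl alcohol dehydrogenase family, from 1952.5 and 1554.1 to 105.9 and 37.0. ROMT-17, an O-methyltransferase, and the laccase LAC19 rose by 1.42 and 1.64, though the other probe sets of ROMT-17 differed by -0.84, 1.41 and 0.31. Further large falls were CPDK2 (also listed as PPDK2, a pyruvate phosphate dikinase), from 2202.3 and 2211.6 to 32.1 and 29.3 (-5.16 ± 0.16), WGP1, a BURP domain gene (-4.16), and ILL3, of the family of enzymes that release auxin from its conjugates (-4.06).

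Genes of cell division were mostly lower. Of 64 tested cell cycle and replication genes, 33 were lower, 6 higher and 25 did not pass (median -0.78; 51.6% lower); without the first P-deficient replicate 31 were lower and 2 higher, and 2 were higher without either P-fertilised one. The mitotic cyclins CYCB2-2 and CYCB1-1 fell from 293.2 and 363.6 to 8.8 and 1.8 (-3.27 ± 0.21) and from 352.1 and 399.4 to 14.5 and 9.4 (-3.21 ± 0.22), and the mitotic kinase CDKB2-1 from 236.8 and 263.7 to 19.4 and 20.8. MCM3, a subunit of the replicative helicase, fell from 287.1 and 355.3 to 39.2 and 26.3 (-2.45 ± 0.19), and PCNA, the sliding clamp of DNA polymerase, from 675.7 and 856.8 to 253.9 and 216.2 (-1.57 ± 0.18). CycC1;1, a C-type cyclin linked to transcription, and ORC4, of the origin recognition complex, were among the 6 that rose, by 1.11 and 1.14. Of 45 kinesins and tubulins, 32 were lower and 0 higher (median -1.21; 71.1% lower), among them TUB6 from 1908.3 and 1901.9 to 167.0 and 63.8 and KIN10A from 159.6 and 172.9 to 2.2 and 1.9. Cytosolic ribosomal protein genes were lower in 5 of 24 cases and higher in 0 (median -0.18; 20.8% lower), near the 24.2% of all genes; leaving out 1 OsPSTOL1 array at a time left 0 to 2 lower, and quantile normalization gave 11.

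Hormone genes passed in both directions. Auxin genes were lower in 21 of 55 cases and higher in 12 (median -0.39). The Aux/IAA repressors IAA13 and IAA30 fell from 2653.8 and 2727.6 to 285.7 and 198.3 and from 1485.4 and 1531.5 to 124.8 and 75.2, and PIN2, an auxin exporter of the root tip, from 141.1 and 165.5 to 16.8 and 11.0 (-2.01 ± 0.17). The auxin response factors ARF10 and ARF14 rose by 1.63 and 1.33, and GH3-8, which conjugates auxin to amino acids, from 369.1 and 318.3 to 1608.0 and 2407.3 (2.42 ± 0.22). Cytokinin genes were lower in 14 of 29 cases and higher in 4 (median -0.39; 8 and 9 lower without the first and the second P-fertilised replicate, and 2 higher without the second). The cytokinin oxidases CKX4 and CKX3 fell by 1.66 and 1.32, and LOGL1, of the family that activates cytokinins, from 1495.6 and 1194.2 to 256.9 and 215.2 (-2.36 ± 0.18), while RR6, a type-A response regulator, rose from 1282.6 and 1216.9 to 2709.7 and 2910.4 (1.15 ± 0.16). Jasmonate and ethylene genes were higher in 11 of 51 cases and lower in 13 (median 0.19). These shares, 21.6% and 25.5%, were near the 21.3% and 24.2% of all genes. Fewer were higher without the second P-deficient or either P-fertilised replicate. LOX3, a lipoxygenase, fell by 2.79, and JAZ8, a jasmonate repressor, rose by 1.98 ± 0.39.

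Transcription factor and signalling families gave mixed counts. Homeobox and root initiation genes were lower in 11 of 37 cases (29.7%) and higher in 6 (16.2%), with a median of -0.31. Among all genes 24.2% were lower and 21.3% higher. WOX5, the factor of the quiescent centre, read 22.5 and 19.7 against 71.3 and 79.5 (-1.02 ± 0.14). NAC and senescence genes were higher in 6 of 12 cases and lower in 1 (median 0.46), but without the second P-deficient or the second P-fertilised replicate only 2 and 1 were higher. SGR, which starts chlorophyll breakdown, rose from 302.1 and 278.5 to 599.7 and 664.7 (1.04 ± 0.23), and NAC5 fell from 1164.4 and 1464.6 to 85.5 and 354.8. MADS-box genes were higher in 4 of 20 cases (2 without the first P-fertilised replicate) and lower in 2. Of 6 WRKY genes 1 was higher and 2 lower, counts that moved between 0 and 2 without 1 array. Calcium-linked kinases and sensors were higher in 22 of 71 cases and lower in 15 (median -0.02; 9 lower without either P-fertilised replicate). CIPK29 rose from 111.2 and 111.5 to 583.5 and 666.0 (2.19 ± 0.18) and CIPK18 fell from 145.1 and 169.2 to 10.6 and 1.4 (-2.32 ± 0.17). The non-symbiotic haemoglobin genes NSHB1 and NSHB2, which scavenge nitric oxide in oxygen-poor tissue, fell from 2096.6 and 1752.5 to 255.5 and 128.0 and from 3811.3 and 2631.5 to 424.9 and 55.6. They and PDC3, a pyruvate decarboxylase gene, were the 3 of 7 low-oxygen genes that fell, with 0 higher, by 1 probe set per gene. PDC2 differed by -3.00 in 1 probe set (limma adjusted p = 0.00186) and by -0.62 in another (limma adjusted p = 0.355). Of 10 tested photosynthesis genes, 2 were lower (20.0%, near the 24.2% of all genes) and 0 higher (median -0.21). More were lower without the first P-fertilised replicate and fewer without any other OsPSTOL1 array.

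**Figure D4:**
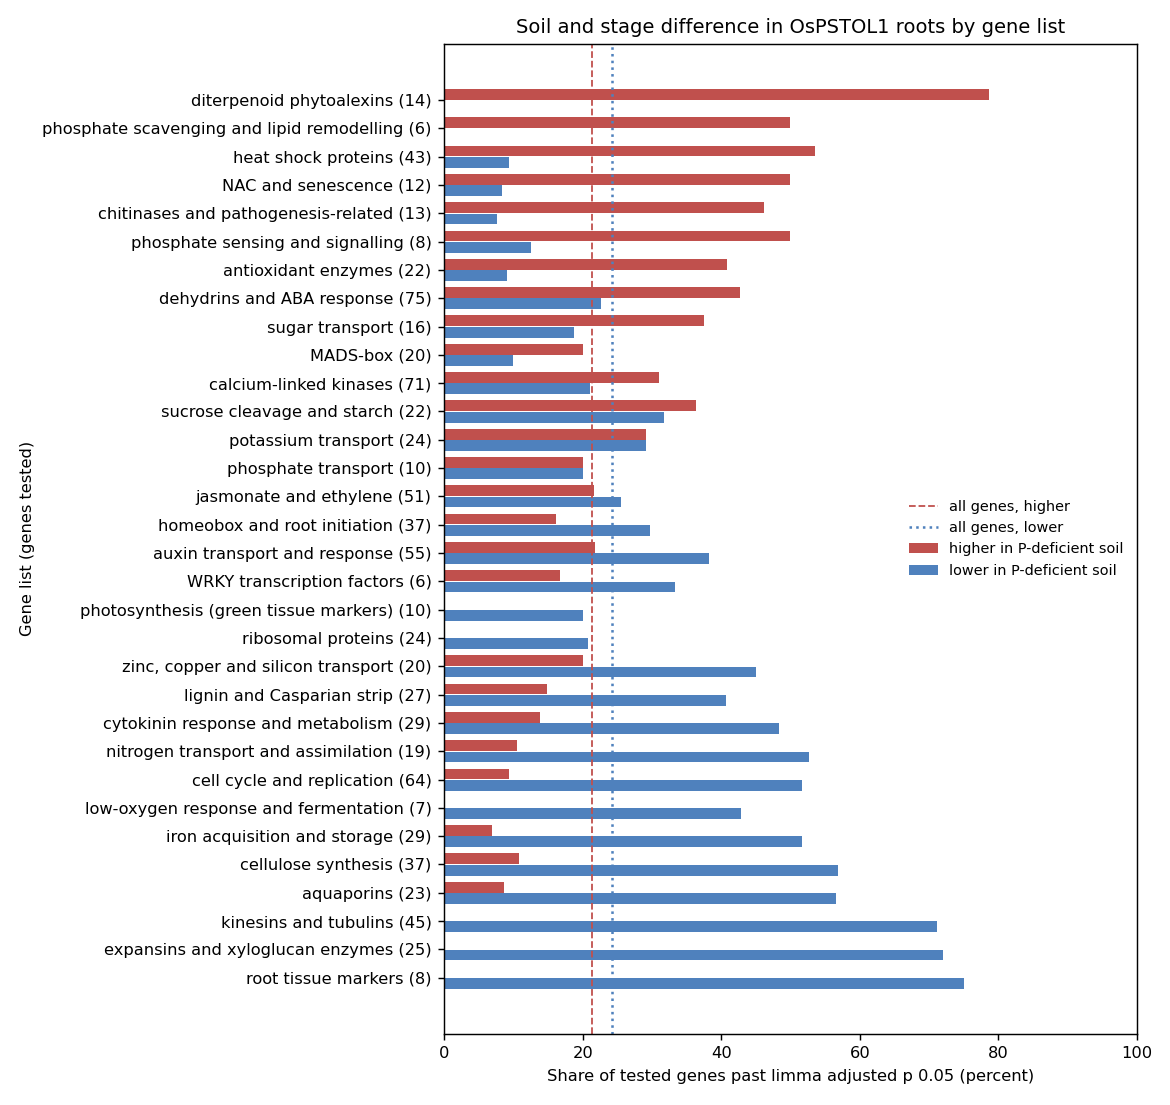
Share of tested genes of each list, in percent, that were higher (upper bar) or lower (lower bar) in P-deficient OsPSTOL1 roots at a limma adjusted p of 0.05, for lists with at least 5 tested genes, with the shares of all genes (21.3% and 24.2%) as vertical lines. Diterpenoid genes (78.6% higher) stand at one end, and expansins (72.0% lower), kinesins and tubulins (71.1% lower) and root tissue markers (75.0% lower) at the other.

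The null segregants showed a similar contrast. Over 34316 probe sets the differences of the 2 genotypes, which share no arrays, correlated at r = 0.925 and rho = 0.843, a description of probe sets that share soils, stages and chip. Of the 12235 probe sets that passed in OsPSTOL1 plants, 11950 (97.7%) had the same sign in null segregants. The 8891 that passed in both with the same sign were 72.7% of the calls in OsPSTOL1 plants and 79.6% of those in null segregants. Both tests used the same pooled spread of a probe set, so these calls are not independent of each other. Of lower calls 72.7% were shared and of higher calls 72.6%. The GAPDH ratios of the null segregant arrays in P-deficient soil were 1.15 and 1.21. What part RNA integrity had in these shares was not tested. The median of the probe sets that fell was -1.04 in OsPSTOL1 plants and -0.90 in null segregants, and that of those that rose was 0.92 and 0.79; these sets were selected on the first value of each pair.

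The test of the difference itself, the soil contrast in OsPSTOL1 plants minus that in null segregants, passed for 0 of 34316 probe sets (0.0%) by limma, with a smallest adjusted p of 0.123 and 2032 probe sets at an unadjusted p under 0.05. Without the second P-deficient OsPSTOL1 replicate, which leaves the array with the high control ratios as the only one of its group, 140 passed. None of the gene differences in this paragraph therefore passed. Among genes with a published name, BURP2 had the smallest p: 940.3 and 1206.4 against 1409.8 and 1380.8 in OsPSTOL1 plants, and 71.6 and 83.6 against 2775.9 and 1425.0 in null segregants (3.83 ± 0.40, limma adjusted p = 0.123), while its other probe set differed by -0.67 between soils in OsPSTOL1 plants. GLN1-1, the glutamine synthetase above, departed the other way: it read 143.2 and 260.8 on the P-deficient OsPSTOL1 arrays and 618.5 and 1418.8 on those of null segregants, against 2043.0 to 2687.4 in P-fertilised soil (-1.82 ± 0.51, limma adjusted p = 0.829). The gene LOC4338208, singled out after its values were seen, read 1.6 and 10.2 against 1000.4 and 3188.4 in OsPSTOL1 plants, a fall of -5.60 ± 0.43, and differed by 0.14 in null segregants, where P-deficient roots read 3670.2 and 3389.7. Its other probe set differed by 0.10 between soils in OsPSTOL1 plants, so the fall was seen in 1 of 2 probe sets. Of the 14 diterpenoid genes, 6 had an unadjusted p under 0.05 in this test, against 645 of all 16166 genes, and none passed after adjustment (lowest limma adjusted p = 0.829). The share was larger among WRKY genes (3 of 6), and 2 of 8 root tissue markers also had an unadjusted p under 0.05. The 6 diterpenoid genes, picked by that p, all rose less in OsPSTOL1 plants, by -1.30 (CPS2) to -0.64 (DTC1) on the log2 scale. The soil difference of CPS2 was 3.12 in OsPSTOL1 plants and 4.41 in null segregants, that of CYP99A3 1.53 and 2.73, and that of KS10 1.46 and 2.53.

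**Figure D5:**
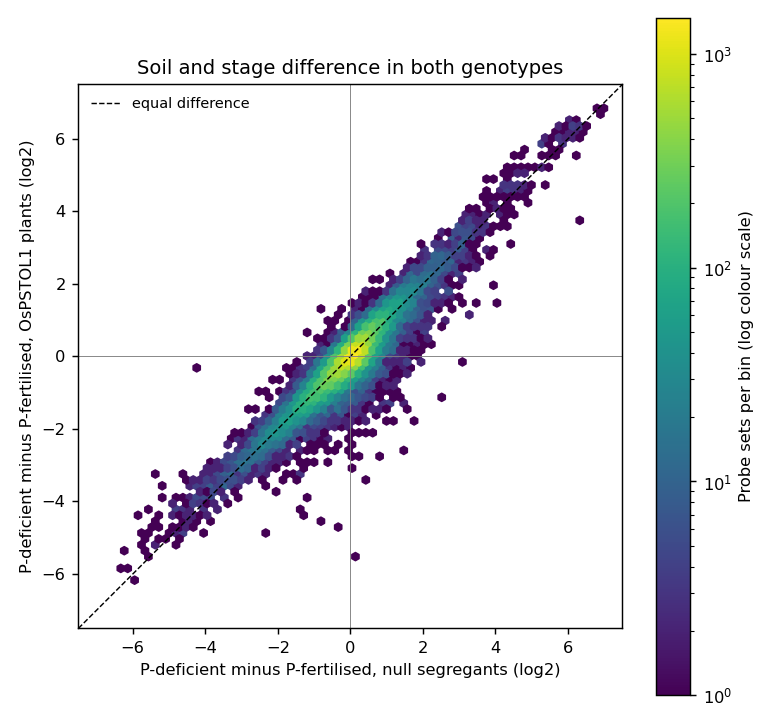
Log2 difference between P-deficient and P-fertilised roots for 34316 probe sets, null segregants on the x axis and OsPSTOL1 plants on the y axis, in hexagonal bins coloured by the number of probe sets (log colour scale), with the diagonal of equality dashed. The bins follow the diagonal (r = 0.925), and LOC4338208, at 0.14 and -5.60, lies farthest from it among those described.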

How the data were processed

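The deposited values are intensity signals of 57381 probe sets on 8 arrays, made by the authors with GCOS, per the submitters' processing notes (no version given). Each array's mean after 2% was trimmed at each end is near 100, so the signals were taken as already scaled. Of 57194 probe sets that are not controls, 22436 matched 1 gene through the platform's annotation and RefSeq names (ASM3414082v1), 95 several and 34663 none, and 187 control probe sets were left out of all tests. The arrays are the precision limit: 2 per group.

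Signals were transformed as log2(signal + 32), and the lowest 40% by mean (log2 under 5.39) left out. limma 3.58.1 in R 4.3.3 fitted 4 group means over 8 arrays (4 residual degrees of freedom) with a trended empirical Bayes prior and Benjamini-Hochberg adjustment at 0.05; the p-values measure the spread between 2 arrays a group, pooled over 4 groups. The script was tested on simulated data. Tables were made in Python 3.11.15 with pandas 2.3.3. Named genes are, per direction, the 15 with the largest difference among those past the threshold whose arrays do not overlap, with a published name; for the genotype difference, 5 per direction by p; and from each list the 4 with the smallest p and its defining members, to which a few further list members were added after their values were seen. The comparison and the lists were chosen with earlier results of these data known. Alternatives were other pseudocounts (1 and 100), quantile normalization, no filter or a 60% filter, no trend, the 4 OsPSTOL1 arrays alone, the replicate number as a block, the GAPDH 3' to 5' ratio as a covariate and each array left out. Sequences were not analysed here.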

Additional observations from a re-analysis of the deposited data

Results flagged for a closer look

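One signal lies outside the main measurement. The control part of the array holds 1 reporter probe set for a gene used in plant transformation constructs, which read 345.3 and 1887.6 in P-deficient and 3348.2 and 3393.7 in P-fertilised OsPSTOL1 roots. The null segregant arrays, which serve as controls, read 185.4, 198.0, 176.7 and 10.8, so all 4 OsPSTOL1 arrays lay above them. The lowest OsPSTOL1 value was that of the array with the GAPDH ratio of 198. The part of RNA integrity in these values was not tested, and the labels used here do not describe the construct's marker gene. Groups of 2 arrays are too small for a test of an outlying array within a group.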

How the results depend on the processing

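Counts of probe sets past the threshold depended most on single arrays. For OsPSTOL1 plants the 12235 calls ranged from 7821 to 13869 with 1 array left out (higher 3228 to 6070, lower 4593 to 7813), and from 8436 with the GAPDH covariate to 12653 with the 4 OsPSTOL1 arrays alone. The lowest counts came without the second P-fertilised replicate (7821, of them 3228 higher and 4593 lower); 3508 were higher without the first. For null segregants the 11166 calls ranged from 6795 to 11078 with 1 array left out and from 9651 to 11371 under the other alternatives. The difference between genotypes gave 0 calls under every alternative that kept all 8 arrays, and 0 to 140 with 1 left out: 140 without the second P-deficient OsPSTOL1 replicate, 4 and 1 without the first and second P-fertilised one and 2 without the second P-fertilised null segregant. Dropping an array leaves its group with 1 array, assumed to vary like the others. The deviations of equally numbered arrays correlated at -0.261 to 0.21 between groups, highest between the genotypes in P-fertilised soil, and the labels name no shared batch, so the numbers were not taken as pairs; the replicate block gave 11515 calls, 4921 higher and 6594 lower. Quantile normalization moved the median difference from -0.03 to 0.04 and the share of calls that were higher from 43.4% to 50.8%. Of 158 listed or named genes, 144 passed. Of these, 124 kept their call under each of the 17 alternatives in which they were tested. The signal filter left a few genes out of some alternatives. Most of these genes were picked for a large difference or a small p in these data. Their stability was thus partly set by that choice and does not describe all calls. None of the 144 changed sign. Among the 20 that lost their call at least once were Lsi1 (9 alternatives, limma adjusted p up to 0.274), CAB2R (6, up to 0.135), OsPT6 (3, up to 0.146), NSHB2 (2, up to 0.0839, without the second P-deficient or the first P-fertilised replicate), RAB21 (2, 0.0659 with the GAPDH covariate and 0.0596 without the second P-fertilised replicate), RAB16D (1, 0.0517 with the covariate) and SGR (1, 0.0583 without the second P-fertilised replicate). Of the genes that did not pass, OsPT11 ranged from -0.15 without the second P-fertilised replicate to 2.13 without the first, and OsPT1 was -0.03 after quantile normalization and -0.01 with the covariate; the cause was not tested. Recounts of the lists with quantile normalization, with the covariate and without either P-fertilised replicate were chosen after seeing the data. With 2 arrays a group and low signals near background, small differences in dim genes could not be resolved.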

Other observations

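Several genes that rose are known from maturing seeds, and other seed genes were looked up after the values were seen. EM, a late embryogenesis gene of the embryo, read 2566.1 and 1830.3 in P-deficient OsPSTOL1 roots against 127.9 and 51.9 in P-fertilised ones. The 6 glutelin storage protein genes did not follow: they summed to 55.3 and 113.8 against 201.9 and 117.0, and Gt1, the brightest of them, read 38.7 and 84.9 against 169.3 and 91.6. VP1, the seed maturation factor that acts with ABA, read 6.8 and 8.1 against 6.8 and 9.4, near the bottom of the signal range.

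Many of the largest differences belong to loci with no published name. LOC4345287 read 5162.8 and 5666.8 in P-deficient OsPSTOL1 roots against 26.5 and 6.7 in P-fertilised ones, the largest rise of any probe set tested (6.84 ± 0.29, limma adjusted p = 2.69e-06). LOC4326500 read 24.9 and 10.4 against 2518.3 and 2746.7 (-5.76 ± 0.19). Both moved the same way in null segregants, by 6.73 and -6.33.

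Opposite calls in the 2 genotypes were made for 16 probe sets, and 15 of these were lower in P-deficient OsPSTOL1 roots. LOC4326043 read 0.2 and 56.6 against 185.3 and 440.2 in OsPSTOL1 plants, and 2044.1 and 1938.8 against 740.6 and 643.3 in null segregants; its other probe set differed by -0.92 between soils in OsPSTOL1 plants. LOC4341944 read 7.4 and 23.9 against 52.0 and 79.5 in OsPSTOL1 plants, and 706.2 and 534.0 against 105.2 and 64.3 in null segregants. This call (-1.04) was lost without the first P-deficient OsPSTOL1 replicate (-0.79, limma adjusted p = 0.0955), and the gene's other probe set was called the other way in OsPSTOL1 plants, at 2.06, against 2.33 in null segregants. The differences between genotypes did not pass (limma adjusted p = 0.439 and 0.123). The part of RNA integrity, lowest on the first P-deficient OsPSTOL1 array, was not tested.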
